A study of Mus musculus with 18 samples.

Results

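The comparison described here sets terminal bronchiolar epithelial cells of control mice at 72 hr after naphthalene injury against those at 0 hr. Its members were the arrays titled as control replicates 1 to 3 at each of these times, so it rests on 6 of the 18 arrays of the study. All 18 arrays measured total RNA of lung cells from mice of a mixed FVB/N and C57BL/6 strain with Affymetrix Mouse Gene ST arrays. The mice had the genotype named control or the genotype named Cebpa d/d, with 3 arrays for either genotype at 0 hr, at 3 hr and at 72 hr. Every group, that at 0 hr included, carries the label of naphthalene injury, and no group at 72 hr without naphthalene was used here. How the Cebpa d/d allele was made, which cells lose the gene and the age of the mice are not given in the sources used here. Whether replicates were different animals is not stated, and the p-values therefore refer to the scatter among these arrays, part of which may be technical.

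Naphthalene is an airway toxicant that is activated by Cyp2f2, a cytochrome P450 of club cells, the secretory cells of the small airways. Club cells that hold the enzyme are injured and shed, ciliated cells flatten over the bare surface, and surviving secretory cells are known to divide and to rebuild the epithelium over the following days. C/EBP alpha, the product of Cebpa, is a transcription factor of differentiated lung epithelium, and Spink5, Slpi and Timp1 are inhibitors of the proteases that remodel injured tissue.

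Each value is a log2 level of a gene on an array, so a difference of 1 is a 2-fold change. A gene was called higher or lower at a Benjamini-Hochberg adjusted p under 0.05 in limma over 19938 genes, and errors are standard errors (SE) of a difference between groups of 3 arrays. Before the results, 3 properties of the arrays have to be stated. The array labelled control 0 hr replicate 1 had a Cebpa level of 7.89, against 10.07 and 10.17 in the other control arrays at 0 hr and 7.83 to 8.27 in the Cebpa d/d arrays at 0 hr. It goes against its label, and results are therefore also given without it. The array labelled Cebpa d/d 72 hr replicate 1 stood apart from its group at some of the genes that changed in the control comparison and not at others, as given with the comparison of genotypes below. By Xist and Eif2s3y, transcripts of female and male cells, the control arrays at 0 hr were male, male and female, while all 3 at 72 hr were female. The only female control array at 0 hr was replicate 3, so sex and time are partly confounded, and counts are also given with sex as a covariate.

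A club cell gene read high at both times, but so did markers of other lung cells. These readings do not show what part of the RNA came from the labelled cell type. Scgb1a1, the secretoglobin by which club cells are usually recognised, read 12.66, 12.78 and 12.79 at 0 hr and 12.79, 12.71 and 12.79 at 72 hr. The groups overlap, and these values lie near the top of the scale, which ended at 13.93, so a steady reading may hide a change. Sftpc, the surfactant protein of alveolar type 2 cells, read 13.14 to 13.26 at 0 hr and 13.18 to 13.31 at 72 hr, also near the top of the scale. Myh11, the smooth muscle myosin, read 10.86 to 10.94 at 0 hr and 10.76 to 10.83 at 72 hr. Neither Sftpc (0.05 ± 0.08, adjusted p = 0.782) nor Myh11 (-0.1 ± 0.14, adjusted p = 0.747) passed the test, and in bulk RNA fewer cells of a type and less RNA per cell cannot be told apart.

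At 72 hr, 987 genes were higher than at 0 hr (4.95% of those tested) and 438 were lower (2.2%). At least 2-fold changes were called for 213 genes higher and 57 lower. Genes of mitosis rose, as did genes of secreted proteins, surface proteins and inhibitors such as Orm1, Clu, Psca and Spink5. Genes of differentiated secretory cells such as Pon1, Scgb1c1, Pigr and Ces1f fell. Without the array labelled control 0 hr replicate 1, 1037 genes were higher (5.2%) and 344 lower (1.73%), and these held 791 of the 987 and 244 of the 438 genes. With sex as a covariate 589 were higher (2.95%) and 201 lower (1.01%), which held 574 and 187 of those called with all arrays and no sex term. No gene was called in the opposite direction under either setting. The groups did not overlap for 5089 genes (25.5%), with 72 hr higher for 2619 (13.1%) and lower for 2470 (12.4%), so a lack of overlap alone was common.

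**Figure D1:**
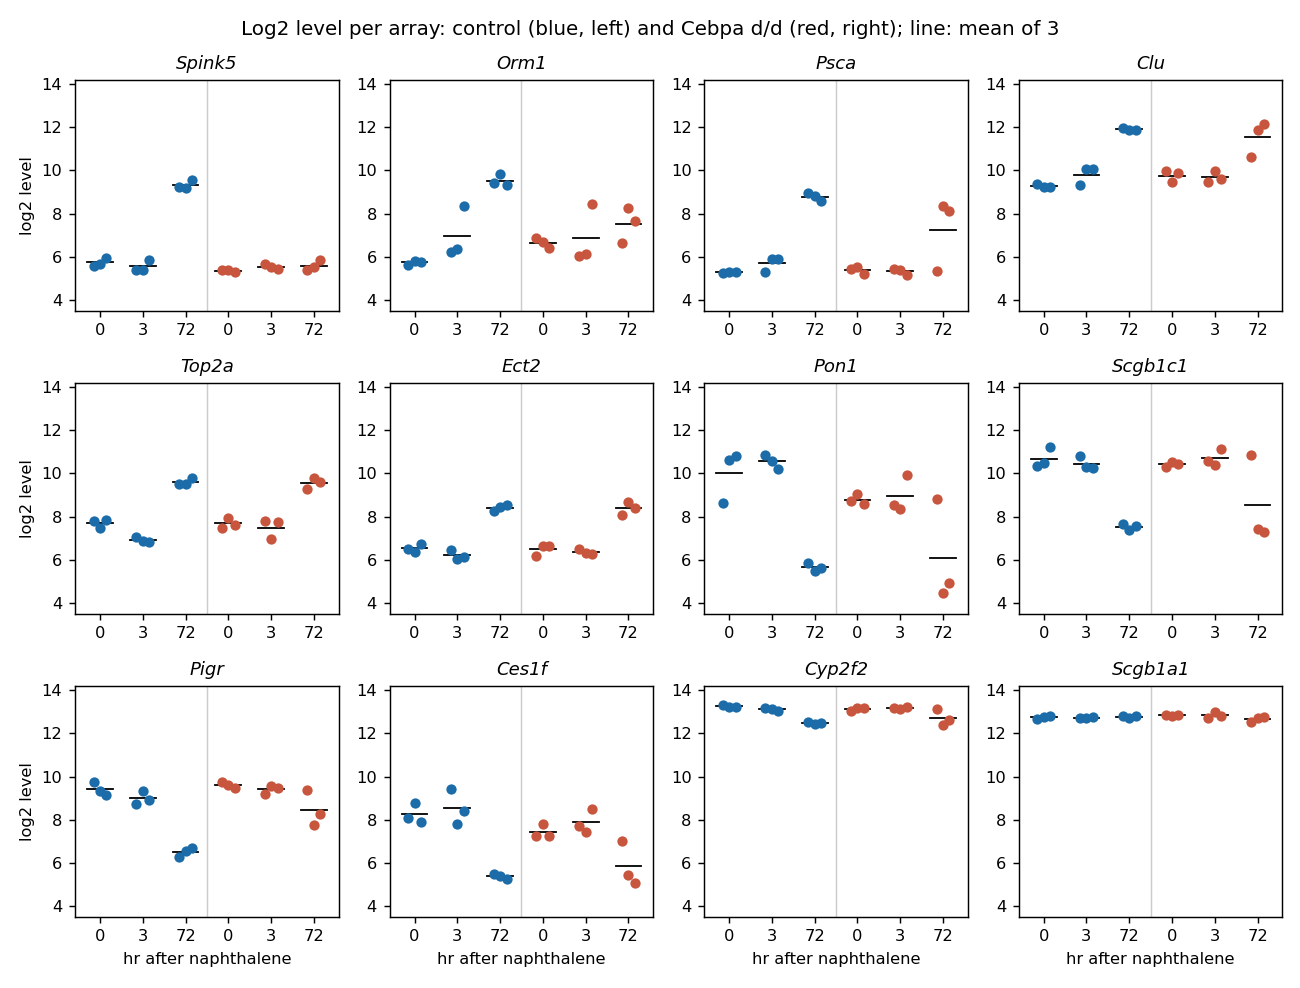
Log2 level (vertical axis) of 12 genes on each of the 18 arrays, by hr after naphthalene (horizontal axis), with control arrays in blue on the left and Cebpa d/d arrays in red on the right of each panel, and a line at the mean of 3 arrays. Spink5 reads 9.17 to 9.53 in the control arrays at 72 hr and below 6 in every other group, and the leftmost Cebpa d/d array at 72 hr reads near the 0 hr arrays for Psca, Pon1 and Scgb1c1.

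Genes of cell division were higher at 72 hr, with the highest share of called members among the 41 lists examined. Of 62 measured genes of mitosis, spindle and cytokinesis, 55 were higher and 0 lower (88.7% higher, against 4.95% of all genes), with a median change of 1.12 where that of all genes was -0.023. Of 47 genes of DNA replication and S phase, 21 were higher and 0 lower, with a median of 0.47. Of 40 cyclins, E2F factors and cell cycle inhibitors 10 were higher, and of 22 genes of homologous recombination and the Fanconi pathway 6 were higher, with 0 lower in either list. Mitosis genes were called higher in 51 cases when the array labelled control 0 hr replicate 1 was left out, in 50 with sex as a covariate, and in 49 to 55 when any 1 of the 18 arrays was left out.

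Top2a, the topoisomerase that untangles sister chromatids, read 7.79, 7.48 and 7.82 at 0 hr and 9.50, 9.50 and 9.81 at 72 hr. All 3 arrays at 72 hr lay above all 3 at 0 hr by more than the spread within either group, and the change was 1.91 ± 0.2 (adjusted p = 6.62e-05, 3.75-fold). Mki67, the proliferation antigen of cycling cells, read 7.05, 6.56 and 6.73 at 0 hr and 8.59, 8.42 and 8.33 at 72 hr. Its change was 1.67 ± 0.21 (adjusted p = 0.000307), and the groups did not overlap. Ect2, a protein needed for cytokinesis, read 6.52, 6.37 and 6.74 at 0 hr and 8.24, 8.44 and 8.55 at 72 hr, a rise of 1.87 ± 0.16 (adjusted p = 1.68e-05). Nuf2, a kinetochore protein, rose by 1.83 ± 0.16 (adjusted p = 1.46e-05), and Bub1b, a kinase of the spindle checkpoint, by 1.6 ± 0.12 (adjusted p = 4.68e-06). Cenpf, another kinetochore protein, rose by 1.42 ± 0.13 and Aspm, a spindle pole protein, by 1.18 ± 0.11. Kif11, the motor that drives spindle poles apart, rose by 1.89 (adjusted p = 0.0023), next to Top2a in the order of the list, and Cdk1, the mitotic kinase, by 1.83 (adjusted p = 0.000279). Foxm1, a transcription factor of the mitotic programme, read 5.68, 5.83 and 5.67 at 0 hr and 6.79, 6.58 and 6.78 at 72 hr, a rise of 0.99 ± 0.13 (adjusted p = 0.000437). The 7 mitosis genes that did not pass all had positive changes, since 62 of 62 did; Pttg1, the separase inhibitor, was the smallest at 0.19.

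The S phase genes moved by less and were more often short of the threshold. Hells, a helicase that keeps DNA methylated, rose by 1.49 ± 0.27 (adjusted p = 0.00318), and Rrm2, a subunit of ribonucleotide reductase, read 6.73, 6.58 and 6.45 at 0 hr and 7.48, 8.16 and 7.94 at 72 hr. The groups did not overlap for Rrm2, whose rise was 1.27 ± 0.22 (adjusted p = 0.00245). Mcm7, a subunit of the replicative helicase, rose by 0.71 ± 0.12 (adjusted p = 0.0023) and Fen1, the nuclease that trims Okazaki fragments, by 0.6 ± 0.1 (adjusted p = 0.00152). Mcm5, of the same helicase, read 6.77, 6.76 and 6.48 at 0 hr and 7.13, 7.01 and 7.13 at 72 hr, and its rise of 0.42 ± 0.12 (adjusted p = 0.0367) had an adjusted p of 0.0579 with sex as a covariate. Of the 26 genes of the list that did not pass, Pcna, the sliding clamp of replication, had a change of 0.38 and Gmnn, the licensing inhibitor, one of -0.19. The count of 21 fell to 10 when control 0 hr replicate 2, control 72 hr replicate 2 or control 72 hr replicate 3 was left out. Among regulators, Cks1b and Cks2, partners of cyclin-dependent kinases, each rose by 1.29 (adjusted p = 0.00103 and 0.00056), E2f8 by 1.01 ± 0.19 (adjusted p = 0.00426) and Ccnd1, the cyclin of the G1 phase, by 0.5 (adjusted p = 0.0319). E2f1, the activating E2F factor, changed by 0.1 and did not pass. The 10 regulators became 5 without control 0 hr replicate 3 and 6 without control 72 hr replicate 2, and leaving out the array labelled control 0 hr replicate 1 gave 11 higher and 1 lower. Of the repair genes, Brca1 rose by 0.68 ± 0.12 and Brca2 by 0.81 ± 0.13 (adjusted p = 0.00316 and 0.00191). Of 21 p53 target genes 3 were higher (14.3%, against 4.95% of all genes), and the median of the list was 0.07. The 3 became 1 with sex as a covariate or when control 0 hr replicate 2 or control 72 hr replicate 2 or 3 was left out. The call of Mcm5 was lost without any 1 of control 0 hr replicates 2 and 3 and the control arrays at 72 hr (adjusted p up to 0.151), and that of Ccnd1 without control 0 hr replicate 2 or 3 or control 72 hr replicate 1 or 2 (up to 0.145).

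Promoters of cell cycle genes carry known elements: the cell cycle homology region of genes expressed in mitosis, the CCAAT box that often lies beside it, and the E2F site of S phase genes. The promoters of the 3 mitosis genes and the 3 DNA replication genes with the smallest adjusted p are shown because they let these elements be read beside the 2 rises. Each runs 5′ to 3′ from 250 bases before to 50 bases after the RefSeq start of the gene on GRCm38.p6, and capitals mark a match to TTTGAA or TTCGAA, to CCAAT, or to TTTCCCGC, TTTGGCGC or TTCCCGCC on either strand, so that a match on the other strand appears as its reverse complement.
Bub1b, chr2:118597961-118598260, plus strand: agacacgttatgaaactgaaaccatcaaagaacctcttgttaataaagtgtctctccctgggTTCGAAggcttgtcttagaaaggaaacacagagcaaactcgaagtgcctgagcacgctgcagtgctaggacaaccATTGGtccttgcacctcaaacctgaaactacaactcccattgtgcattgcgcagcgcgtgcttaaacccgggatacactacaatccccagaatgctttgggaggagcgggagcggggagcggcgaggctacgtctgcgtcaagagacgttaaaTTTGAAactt
Nuf2, chr1:169531415-169531714, minus strand: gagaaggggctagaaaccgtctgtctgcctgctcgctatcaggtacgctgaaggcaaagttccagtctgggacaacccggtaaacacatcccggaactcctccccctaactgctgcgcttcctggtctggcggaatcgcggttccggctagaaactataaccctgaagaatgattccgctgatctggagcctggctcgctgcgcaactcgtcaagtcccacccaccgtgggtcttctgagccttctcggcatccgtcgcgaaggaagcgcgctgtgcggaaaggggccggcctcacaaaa
Ect2, chr3:27153829-27154128, minus strand: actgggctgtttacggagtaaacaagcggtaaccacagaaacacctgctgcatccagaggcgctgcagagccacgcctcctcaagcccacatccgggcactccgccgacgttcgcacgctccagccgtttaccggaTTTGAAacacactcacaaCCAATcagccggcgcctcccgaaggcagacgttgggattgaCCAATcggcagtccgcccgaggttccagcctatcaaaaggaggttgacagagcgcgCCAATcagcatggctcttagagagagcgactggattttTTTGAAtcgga
Fen1, chr19:10204344-10204643, minus strand: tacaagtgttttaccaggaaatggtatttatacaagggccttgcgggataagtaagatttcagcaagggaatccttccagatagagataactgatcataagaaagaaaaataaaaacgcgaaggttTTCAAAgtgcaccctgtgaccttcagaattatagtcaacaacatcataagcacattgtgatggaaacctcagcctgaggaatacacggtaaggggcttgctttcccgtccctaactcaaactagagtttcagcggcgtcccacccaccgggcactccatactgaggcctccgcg
Mcm7, chr5:138171834-138172133, minus strand: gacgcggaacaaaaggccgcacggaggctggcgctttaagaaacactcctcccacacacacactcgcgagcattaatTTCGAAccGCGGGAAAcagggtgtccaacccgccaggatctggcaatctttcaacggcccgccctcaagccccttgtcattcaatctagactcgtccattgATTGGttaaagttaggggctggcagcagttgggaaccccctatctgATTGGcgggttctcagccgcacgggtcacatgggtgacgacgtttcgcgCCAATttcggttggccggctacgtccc
Rrm2, chr12:24708004-24708303, plus strand: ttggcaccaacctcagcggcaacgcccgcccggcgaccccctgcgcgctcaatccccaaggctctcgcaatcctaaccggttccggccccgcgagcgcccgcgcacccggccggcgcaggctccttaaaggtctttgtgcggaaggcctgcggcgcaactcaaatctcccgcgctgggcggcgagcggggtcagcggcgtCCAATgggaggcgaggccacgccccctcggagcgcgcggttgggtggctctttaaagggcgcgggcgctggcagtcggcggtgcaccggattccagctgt
For genes with more than 1 promoter in the table the first was used. In these windows Bub1b held 2 matches of the cell cycle homology region and 1 CCAAT box, Ect2 held 2 of the former and 3 of the latter, and Nuf2 held none of the letters searched. The DNA replication genes Fen1 and Mcm7 also held the cell cycle homology region, at -124 and -173 from the start. CCAAT lay at -72, -26 and 23 in Mcm7 and at -50 in Rrm2. These 6 windows alone thus do not set the mitosis genes apart. Mcm7 held 1 match of E2F letters, the only one among the 6 windows, and no match overlapped another. Over the lists, 41 of 53 mitosis genes with a promoter in the table held the cell cycle homology region (77.4%), against 7 of 38 DNA replication genes (18.4%) and 16.8% of all tested genes with a promoter. The E2F letters were held by 4 of 53 mitosis promoters (7.55%), 17 of 38 DNA replication promoters (44.7%) and 4.62% of the tested genes. CCAAT was held by 38 of 53 (71.7%) and 23 of 38 (60.5%), against 38.2%. These shares describe letters in a window and were not tested, and they cover all measured members with a promoter, whether or not they were called.

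**Figure D2:**
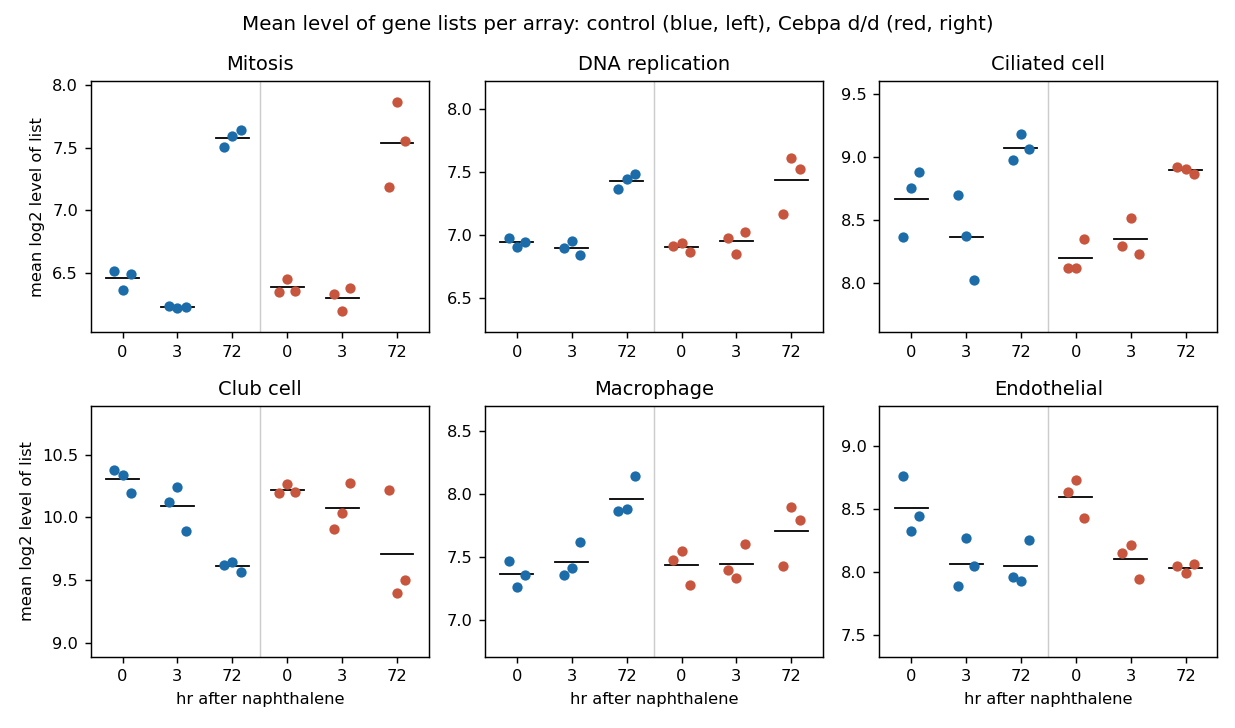
Mean log2 level of the measured members of 6 gene lists (vertical axis, a separate range in each panel) on every array, by hr after naphthalene (horizontal axis), with control in blue, Cebpa d/d in red and a line at the mean of 3 arrays. The mitosis list lies at 6.36 to 6.52 in control arrays at 0 hr and at 7.50 to 7.64 at 72 hr, and the club cell list at 10.19 to 10.38 and 9.56 to 9.64.

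More club cell markers were lower than higher at 72 hr. Of 30 measured club cell markers, 11 were lower and 3 higher, with a median of -0.61, against 2.2% of all genes lower. Of 47 cytochrome P450s and other enzymes that process foreign compounds, 12 were lower and 4 higher, with a median of -0.23. These are 25.5% and 8.51%, against 2.2% and 4.95% of all genes. The 12 became 8 without control 0 hr replicate 2 and 7 without control 72 hr replicate 3, and the 4 became 1 without control 0 hr replicate 2 or 3 or control 72 hr replicate 2 or 3. Cyp2f2, the enzyme that activates naphthalene, read 13.31, 13.22 and 13.23 at 0 hr and 12.55, 12.45 and 12.48 at 72 hr. All 3 later arrays lay below all 3 earlier ones, and the change was -0.76 ± 0.12 (adjusted p = 0.00182). Scgb3a2, a second secretoglobin of these cells, read 12.34, 12.33 and 12.37 at 0 hr and 11.91, 11.98 and 12.01 at 72 hr. Its groups did not overlap, but with the spread shared over all 18 arrays the change of -0.38 ± 0.19 did not pass (adjusted p = 0.286). Without the array labelled control 0 hr replicate 1, 9 club cell markers were lower and 3 higher, and with sex as a covariate 6 were lower and 1 higher. The 11 fell to 6 or 7 when control 0 hr replicate 2, control 72 hr replicate 2 or control 72 hr replicate 3 was left out.

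Larger falls were seen in enzymes and in genes of the secretory surface. Pon1, a paraoxonase that splits lipid esters, read 8.65, 10.64 and 10.80 at 0 hr and 5.87, 5.47 and 5.64 at 72 hr. It fell by 4.37 ± 0.81 (adjusted p = 0.00401, 20.6-fold), and the array labelled control 0 hr replicate 1 was low among the 0 hr arrays. Ces1f, a carboxylesterase, read 8.08, 8.77 and 7.88 at 0 hr and 5.50, 5.39 and 5.26 at 72 hr, and it fell by 2.86 ± 0.44 (adjusted p = 0.0013). Its paralog Ces1e fell by 1.84 ± 0.34 (adjusted p = 0.00377); close sequence between these esterases may let probes read both. Gsta3, a glutathione transferase that conjugates reactive metabolites, read 11.52, 11.48 and 11.52 at 0 hr and 10.13, 10.16 and 9.67 at 72 hr. It fell by 1.52 ± 0.26 (adjusted p = 0.00254). Cyp4f15, which oxidises fatty acids, fell by 1.99 ± 0.35 and Cyp1a1, the enzyme induced through the aryl hydrocarbon receptor, by 1.38 ± 0.2 (adjusted p = 0.00307 and 0.000714). Gabrp, a subunit of the GABA receptor found in secretory airway cells, fell by 1.5 ± 0.19 (adjusted p = 0.000279). Members that went the other way were Cyp2e1 (1.06, adjusted p = 0.011), which oxidises ethanol, Gsto1 (0.88, adjusted p = 0.0118), a glutathione transferase, and Itm2a (0.91 ± 0.16, adjusted p = 0.00307). The call of Cyp2e1 was lost without control 0 hr replicate 3 or control 72 hr replicate 3 (adjusted p up to 0.0548), and that of Gsto1 without control 0 hr replicate 2 or 3 or control 72 hr replicate 2 (up to 0.0727).

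Pigr, the receptor that carries immunoglobulin A across epithelium, read 9.77, 9.34 and 9.15 at 0 hr and 6.29, 6.57 and 6.71 at 72 hr. It fell by 2.9 ± 0.29 (adjusted p = 4.9e-05, 7.46-fold). Scgb1c1, a secretoglobin, read 10.34, 10.47 and 11.23 at 0 hr and 7.66, 7.36 and 7.57 at 72 hr, and it fell by 3.15 ± 0.61 (adjusted p = 0.00498). The groups were separate for both genes, with 72 hr low. Chad, a matrix protein of cartilage, fell by 2.71 ± 0.52, Slc4a5, a bicarbonate transporter, by 2.05 ± 0.31, and Trf, transferrin, by 1.87 ± 0.38 (adjusted p = 0.00461, 0.000984 and 0.00713). Itprid1 (-2.33), Elapor1 (-2.02), Rptn (-1.75) and Lypd2 (-2.25) were among the 15 widest falls as well, and the adjusted p of Lypd2 was 0.0132 with all arrays, 0.0506 with sex as a covariate and 0.0531 without control 72 hr replicate 3. Scnn1b and Scnn1g, subunits of the sodium channel that absorbs airway fluid, fell by 1.97 ± 0.36 and 1.27 ± 0.27 (adjusted p = 0.00346 and 0.00905). Scnn1a, the third subunit type, changed by 0.38 and did not pass. Across 33 genes of ion and fluid transport 4 were lower and 3 higher (12.1% and 9.09%, against 2.2% and 4.95% of all genes). The 4 became 2 without any 1 of control 0 hr replicates 2 and 3 and the control arrays at 72 hr. S100g, a calcium-binding protein, was among the higher ones, at 8.22, 9.38 and 9.60 at 0 hr and 10.65, 10.88 and 10.66 at 72 hr. Its rise was 1.67 ± 0.26 (adjusted p = 0.00142), and the lowest reading at 0 hr was that of the array labelled control 0 hr replicate 1.

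The widest rises included the following genes. Orm1, orosomucoid, a plasma protein of the acute phase, read 5.63, 5.82 and 5.76 at 0 hr and 9.41, 9.84 and 9.32 at 72 hr. It rose by 3.79 ± 0.58 (adjusted p = 0.00115, 13.8-fold), with each 72 hr array far above each 0 hr array. Its relative Orm2 rose by 1.95 ± 0.27 (adjusted p = 0.000557). Orm3 was higher by 0.73 with all arrays (adjusted p = 0.0468), but its call was lost with sex as a covariate (0.0674) and without any 1 of 14 of the 18 arrays (up to 0.215), and probes of such close paralogs may read more than 1 of them. Ghrl, the precursor of the hormone ghrelin, read 7.64, 8.35 and 8.33 at 0 hr and 11.66, 11.73 and 11.45 at 72 hr. Psca, a surface protein of renewing epithelia, read 5.25, 5.27 and 5.28 at 0 hr and 8.93, 8.81 and 8.57 at 72 hr. Ghrl rose by 3.5 ± 0.41 (adjusted p = 0.00017) and Psca by 3.5 ± 0.5 (adjusted p = 0.000692), and neither had overlapping groups. Clu, the secreted chaperone clusterin, read 9.37, 9.22 and 9.24 at 0 hr and 11.97, 11.89 and 11.88 at 72 hr, a rise of 2.64 ± 0.29 (adjusted p = 0.000116). Msln, mesothelin, a surface protein of mesothelium that other epithelia can also make, rose by 2.5 ± 0.49 (adjusted p = 0.00524). Upk3b, a mesothelial marker, fell by 0.82 ± 0.2 (adjusted p = 0.0192), a call lost without control 72 hr replicate 1 or 2 (up to 0.0925), and the mesothelial list as a whole had 2 of 12 genes higher and 1 lower. Mt2, a metallothionein that binds zinc, rose by 2.97 ± 0.37 (adjusted p = 0.000274), and Tdo2, which degrades tryptophan, by 2.73 ± 0.31 (adjusted p = 0.000153). Chia1, the acidic chitinase of airway secretions, read 8.30, 7.98 and 7.93 at 0 hr and 10.46, 10.21 and 10.14 at 72 hr, a rise of 2.2 ± 0.21 (adjusted p = 3.6e-05).

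Of 32 acute phase and antimicrobial secreted proteins 7 were higher and 0 lower (21.9% higher), with a median of 0.33; 5 were higher with sex as a covariate, and 4 without control 0 hr replicate 2 or control 72 hr replicate 2. Leaving out the array labelled control 0 hr replicate 1 gave 6 higher and 2 lower. Beside the orosomucoids they included Sectm1b (2.46 ± 0.25, adjusted p = 5.43e-05) and Sectm1a (1.07 ± 0.17, adjusted p = 0.00137), secreted ligands of the T cell protein Cd7. Cd7 itself rose by 1.11 ± 0.15 (adjusted p = 0.000496). Saa3 (-0.39), Hp (-0.44) and Ltf (-0.58), classical acute phase or antimicrobial genes, did not pass. Of 43 chemokines and cytokines 5 were higher and 1 lower (11.6% and 2.33%, against 4.95% and 2.2% of all genes). Among the higher ones was Cxcl17, a chemokine of mucosal surfaces, which read 9.70, 9.05 and 8.76 at 0 hr and 10.99, 11.25 and 11.01 at 72 hr. Its rise was 1.91 ± 0.25 (adjusted p = 0.000358), whereas Tnf (0.17), Il6 (0.36) and Il1b (-0.06), central inflammatory cytokines, did not pass. The 5 higher became 1 without control 0 hr replicate 3 or with sex as a covariate, and 2 when control 0 hr replicate 2 or control 72 hr replicate 2 or 3 was left out. They became 3 without control 3 hr replicate 2, Cebpa d/d 0 hr replicate 1, Cebpa d/d 3 hr replicate 1 or 2 or Cebpa d/d 72 hr replicate 3. Centring the arrays on their median also gave 3.

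Among genes of the epithelial cytoskeleton and of cell contacts, more were higher than lower. Of 42 keratins, claudins and adhesion proteins 15 were higher and 1 lower (35.7% higher), with a median of 0.24, and 10 were higher with sex as a covariate. Leaving out control 0 hr replicate 3 gave 9 higher genes, and leaving out control 72 hr replicate 2 gave 8. The simple-epithelium keratins Krt7 and Krt19 each rose by 1.26 (adjusted p = 0.00422 and 0.00401), Krt8 by 1.02 (adjusted p = 0.0077) and Krt18 by 0.81 (adjusted p = 0.0241). Krt7 read 9.94, 9.62 and 9.84 at 0 hr and 10.93, 11.35 and 10.91 at 72 hr, with no overlap. Krt20, a keratin of differentiated gut and urothelial cells, rose by 1.36 ± 0.2 (adjusted p = 0.000866), Anxa1, a membrane-binding protein, by 1.5 ± 0.22 (adjusted p = 0.000984), and Cldn8, a claudin of tight junctions, by 1.03 (adjusted p = 0.00551). Krt23 fell by 1.21 (adjusted p = 0.0098). Without control 72 hr replicate 2 the calls of Krt8 (adjusted p = 0.0503), Krt23 (0.0601) and Krt18 were lost, and that of Krt18 also without control 0 hr replicate 2 or 3 or control 72 hr replicate 3 (up to 0.11). Basal cell keratins stayed short of the threshold, with changes of -0.1 for Krt5, 0.06 for Krt14 and -0.05 for Krt17, and of 17 basal cell markers 1 was higher (Itgb4, 0.54 ± 0.14, adjusted p = 0.0282, 0.0553 with sex as a covariate, and up to 0.131 without any 1 of control 0 hr replicates 2 and 3 and the control arrays at 72 hr).

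Ciliated cell genes were mostly higher at 72 hr, by less than the mitosis genes. Of 56 ciliated cell markers and motile cilia genes 13 were higher and 1 lower (23.2% higher), with a median of 0.43 and positive changes for 50. Without the array labelled control 0 hr replicate 1, 10 were higher and the median was 0.25; with sex as a covariate 10 were higher, and without control 72 hr replicate 2 the number was 8. Dynlrb2, a light chain of the dynein motor, read 10.77, 10.87 and 11.18 at 0 hr and 12.02, 12.06 and 11.95 at 72 hr, a rise of 1.07 ± 0.13 (adjusted p = 0.000284). Rsph9, of the radial spoke, rose by 0.99 ± 0.15, Cfap126 by 0.93 ± 0.13 and Efcab10 by 0.91 ± 0.12 (adjusted p = 0.00134, 0.000509 and 0.000511). Cfap52, of the ciliary axoneme, had the widest change at 1.56 (adjusted p = 0.00338). The lower gene was Gmnc, a regulator at the start of multiciliated cell formation, at -1.22 (adjusted p = 0.0434), a call lost without any 1 of 10 arrays, control 0 hr replicates 2 and 3 and all control arrays at 72 hr among them (up to 0.179). Foxj1, the transcription factor of motile cilia, read 7.25, 7.57 and 7.62 at 0 hr and 7.75, 7.71 and 7.64 at 72 hr, and its change of 0.22 ± 0.13 did not pass (adjusted p = 0.368).

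Among proteases and their inhibitors, the inhibitor Spink5 stood out. Spink5, which restrains kallikrein proteases of epithelium, read 5.59, 5.64 and 5.96 at 0 hr and 9.25, 9.17 and 9.53 at 72 hr. It rose by 3.59 ± 0.15 (adjusted p = 3.87e-10, 12-fold), the smallest adjusted p of the 19938 genes, and leaving out the array labelled control 0 hr replicate 1 gave 3.52. Of 47 protease inhibitors 6 were higher and 1 lower (12.8% and 2.13%, against 4.95% and 2.2% of all genes), with a median of 0.11. Wfdc3, with a domain type of secreted inhibitors, rose by 2.22 ± 0.28 (adjusted p = 0.000316), Cstb, an inhibitor of cathepsins, by 1.51 ± 0.2 (adjusted p = 0.000358), and Cd109, a member of the alpha-2-macroglobulin family, by 1.36 ± 0.27 (adjusted p = 0.00532). Serpina3n, which inhibits granule proteases, read 8.55, 8.46 and 8.87 at 0 hr and 10.73, 10.73 and 10.36 at 72 hr. Its rise was 1.98 ± 0.45 (adjusted p = 0.0129), and its call was lost without control 0 hr replicate 2 or control 72 hr replicate 2 (up to 0.0558). Slpi, the secretory inhibitor of neutrophil elastase, read 8.0, 7.09 and 6.55 at 0 hr and 7.92, 7.96 and 8.0 at 72 hr, so the groups overlap only through the array labelled control 0 hr replicate 1. Its change was 0.75 ± 0.26 (adjusted p = 0.101) with that array and 1.14 (adjusted p = 0.00453) without it. Timp1, the inhibitor of matrix metalloproteinases, read 6.60, 5.90 and 6.19 at 0 hr and 7.81, 8.29 and 8.16 at 72 hr, and although these arrays did not overlap, its change of 1.86 ± 0.64 did not pass (adjusted p = 0.0947).

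Of 62 proteases of the airway 11 were higher and 0 lower (17.7% higher), with a median of 0.2; leaving out the array labelled control 0 hr replicate 1 gave 12, and sex as a covariate 8. Without control 0 hr replicate 2 the number was 7, and without control 72 hr replicate 2 it was 6. Tmprss2, a serine protease of epithelial surfaces, read 9.40, 9.47 and 9.34 at 0 hr and 10.34, 10.31 and 10.20 at 72 hr, a rise of 0.88 ± 0.1 (adjusted p = 0.000174). Lgmn, a lysosomal protease, rose by 1.2 ± 0.18 (adjusted p = 0.00113), Mmp2, a gelatinase of matrix, by 0.89 ± 0.18 (adjusted p = 0.00695), and Ctsd, a lysosomal aspartic protease, by 0.74 ± 0.14 (adjusted p = 0.00508). Lgmn and Ctsd are also abundant in macrophages, and Mmp2 in fibroblasts, whose markers were higher at 72 hr as given below; their part in these rises was not tested. Mmp9 (-0.16), Mmp12 (0.53) and Elane (0.06), proteases of inflammatory cells, did not pass.

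Growth factor genes gave calls in both directions, with 7.69% of the list higher and 10.3% lower, against 4.95% and 2.2% of all genes. Shares called higher and lower were 11.6% and 0% in the Wnt list, and 3.7% and 11.1% in the Notch list. Among transcription factors of lung epithelial lineages they were 0% and 6.98%. Ereg, epiregulin, a ligand of the EGF receptor, read 4.82, 5.07 and 4.95 at 0 hr and 6.72, 8.54 and 7.81 at 72 hr. It rose by 2.74 ± 0.59 (adjusted p = 0.00944), with wide spread at 72 hr and an adjusted p of 0.0618 without control 72 hr replicate 2. The growth factor list held 39 genes, mainly ligands, receptors and feedback inhibitors of the FGF, EGF and HGF families, and also Vegfa, which is of none of these families. Of the 39, 3 were higher and 4 lower. The lower ones included Vegfa (-0.5 ± 0.12) and the receptor Erbb4 (-0.55 ± 0.12), with adjusted p of 0.0149 and 0.0111 and of 0.0421 and 0.0598 with sex as a covariate. The call of Vegfa was lost without control 72 hr replicate 2 (0.0787) and that of Erbb4 without control 0 hr replicate 2 (0.0581). Hbegf, another EGF receptor ligand, had a change of 1.58 that did not pass. In the Wnt list 5 of 43 genes were higher and 0 lower, led by Porcn, the enzyme that lipidates Wnt ligands, at 1.41 ± 0.16 (adjusted p = 0.000116), with arrays at 8.38, 8.11 and 7.98 at 0 hr and 9.74, 9.59 and 9.36 at 72 hr. Porcn alone of the Wnt list passed with sex as a covariate, and Axin2, a target gene of Wnt signals, changed by -0.16. The 5 Wnt genes became 1 without control 0 hr replicate 2 and 2 without control 0 hr replicate 3 or control 72 hr replicate 2 or 3, and the 3 higher growth factor genes became 0 or 1 without any 1 of the same 4 arrays. In the Notch list 1 of 27 genes was higher (Hes6, 0.74 ± 0.13, adjusted p = 0.00356) and 3 were lower (Notch2, Notch3 and Dll4, by 0.62, 0.42 and 0.42), and none of these 3 was called without the array labelled control 0 hr replicate 1. Each of them was also lost without control 0 hr replicate 2 and without some of the control arrays at 72 hr (adjusted p up to 0.142, 0.126 and 0.151). Of 43 transcription factors of lung epithelial lineages 0 were higher and 3 lower, namely Klf5 (-0.61 ± 0.13), Grhl1 (-0.77 ± 0.21) and Irx1 (-0.41 ± 0.1), with adjusted p of 0.0101, 0.0329 and 0.0268 and of 0.0512, 0.105 and 0.0797 with sex as a covariate. The calls of Grhl1 and Irx1 were lost without control 0 hr replicate 2 or 3 or control 72 hr replicate 2 or 3, and that of Grhl1 also without control 72 hr replicate 1 (up to 0.128 and 0.106). Nkx2-1, the lung epithelial master regulator, changed by 0.05 and Sox2, the airway factor, by -0.25, and neither passed. For Cebpa the change was 0.41 ± 0.42 (adjusted p = 0.635) with all arrays and -0.33 (adjusted p = 0.426) without the array labelled control 0 hr replicate 1, after which the arrays at 0 hr read 10.07 and 10.17 and those at 72 hr 9.69, 9.80 and 9.87.

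**Figure D3:**
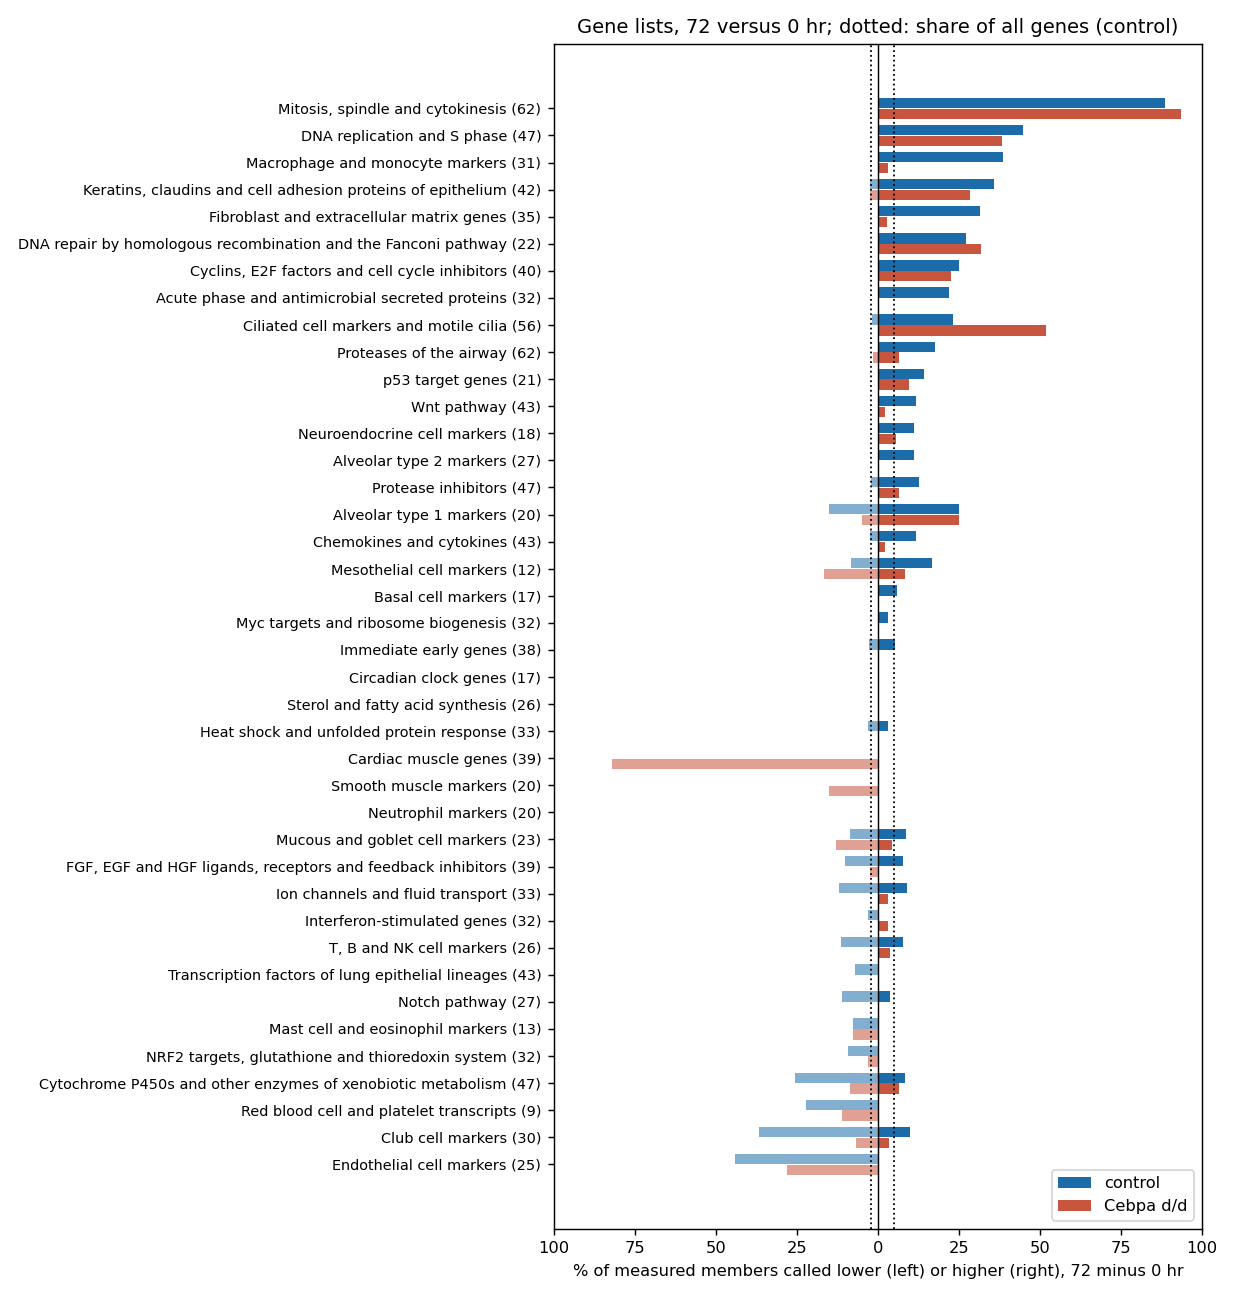
Percent of the measured members of 40 gene lists called lower (left, light bars) or higher (right, dark bars) at 72 than at 0 hr, for control (blue) and Cebpa d/d (red), with the number of measured genes in brackets and dotted lines at the share of all genes in control (2.2% lower, 4.95% higher). Mitosis genes stand at 88.7% higher in control, and bars to the left for muscle genes belong to Cebpa d/d alone.

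Markers of other cell types moved in the same comparison. Of 31 macrophage and monocyte markers 12 were higher and 0 lower (38.7% higher), with a median of 0.5, and the mean level of the list was 7.26 to 7.47 at 0 hr and 7.87 to 8.15 at 72 hr. Vsig4, a complement receptor of resident macrophages, read 5.10, 4.84 and 4.48 at 0 hr and 8.23, 7.72 and 7.44 at 72 hr, a rise of 2.99 ± 0.64 (adjusted p = 0.00973). Mrc1, the mannose receptor, rose by 1.25 ± 0.25 (adjusted p = 0.00661), Cd163 by 1.24 ± 0.23 (adjusted p = 0.00433) and Lgals3, galectin 3, which epithelium also makes, by 1.87 ± 0.27 (adjusted p = 0.000866), whereas Marco (-0.03) and Siglecf (-0.07), markers of alveolar macrophages, did not pass. Leaving out the array labelled control 0 hr replicate 1 gave 11; the count was 7 with sex as a covariate, and 5 to 7 when control 0 hr replicate 2 or 3 or control 72 hr replicate 2 or 3 was left out. Chil3, a chitinase-like protein of activated macrophages, was higher by 2.1 ± 0.6 (adjusted p = 0.0427), but had an adjusted p of 0.129 once the array labelled control 0 hr replicate 1 was left out, and its call was lost without any 1 of 8 arrays (up to 0.18).

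Of 35 fibroblast and extracellular matrix genes 11 were higher and 0 lower (31.4% higher), with a median of 0.37 and list levels of 8.27 to 8.41 at 0 hr and 8.69 to 8.79 at 72 hr. Col6a3, a collagen of connective tissue, rose by 0.85 ± 0.17 and Bgn, the proteoglycan biglycan, by 0.75 ± 0.15 (adjusted p = 0.00771 and 0.00666). Leaving out the array labelled control 0 hr replicate 1 gave 10; the count was 4 with sex as a covariate, and it fell to 3 without control 0 hr replicate 2, to 7 without control 0 hr replicate 3 and to 5 without any 1 of the control arrays at 72 hr. Of 25 endothelial markers 11 were lower and 0 higher (44% lower), with a median of -0.43 and list levels of 8.33 to 8.76 at 0 hr and 7.93 to 8.25 at 72 hr. Pecam1, an adhesion protein of endothelium, read 10.23, 9.89 and 10.04 at 0 hr and 8.99, 9.08 and 9.57 at 72 hr, and it fell by 0.84 ± 0.15 (adjusted p = 0.00258). Tmem100 fell by 1.62 ± 0.25 and Kdr, the VEGF receptor, by 1.32 ± 0.26 (adjusted p = 0.0013 and 0.00521). The array labelled control 0 hr replicate 1 had the highest endothelial level, and without it 6 markers were lower; 9 were lower with sex as a covariate, 6 without control 72 hr replicate 1 and 4 without control 72 hr replicate 2.

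Of 20 neutrophil markers and 20 smooth muscle markers 0 were called, with list levels of 5.93 to 6.21 at 0 hr and 6.35 to 6.70 at 72 hr for the former and of 8.88 to 9.08 and 8.98 to 9.08 for the latter. S100a8, the calprotectin subunit of neutrophils, had a change of 1.75 that did not pass. Of 39 cardiac muscle genes 0 were called, with list levels of 6.79 to 7.86 at 0 hr and 6.80 to 7.02 at 72 hr. This 0 rests on control 0 hr replicate 3, whose list level of 6.79 was below the 7.55 and 7.86 of the other arrays, and without it 11 were lower. Alveolar type 2 markers gave 3 of 27 higher, with list levels of 9.33 to 9.41 at 0 hr and 9.44 to 9.89 at 72 hr, and 0 higher with sex as a covariate or without control 72 hr replicate 2 or 3, 1 without control 0 hr replicate 2 or 3, and 6 (with 1 lower) once the array labelled control 0 hr replicate 1 was left out. Alveolar type 1 markers gave 5 of 20 higher and 3 lower, and 3 higher without control 0 hr replicate 3 or control 72 hr replicate 2, the latter with 1 lower. Rtkn2, a marker of those cells, fell by 1.07 ± 0.19 (adjusted p = 0.00355), and Ager, their receptor for glycated proteins, changed by -0.25 and did not pass. Lymphocyte markers gave 2 of 26 higher and 3 lower, where the 3 became 0 once the array labelled control 0 hr replicate 1 was left out, 1 without control 0 hr replicate 2 or control 72 hr replicate 2 or 3 and 5 without control 0 hr replicate 3. Red blood cell and platelet transcripts gave 2 of 9 lower, namely Ppbp and Alas2 (-1.71 ± 0.32 and -1.37 ± 0.23, adjusted p = 0.00442 and 0.0023). Neuroendocrine markers gave 2 of 18 higher (11.1%), and mast cell and eosinophil markers 1 of 13 lower (7.69%). The latter call was lost with sex as a covariate and without the array labelled control 0 hr replicate 1. It was also lost without any 1 of the control arrays at 72 hr and without some others. Mucous and goblet markers gave 2 of 23 higher and 2 lower (8.7% each). Over all genes 4.95% were higher and 2.2% lower, and in such short lists 1 gene shifts the share widely. The 2 lower mucous markers became 6 without control 0 hr replicate 3 and 1 without any 1 of control 0 hr replicates 1 and 2 and control 72 hr replicates 2 and 3. The part that such cells had in the changes of single genes was not tested.

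The early response, measured at 3 hr, had other leading groups. In control mice 374 genes were higher (1.88%) and 323 lower (1.62%) at 3 than at 0 hr. This comparison shares its 0 hr arrays with that at 72 hr, so the values are only set side by side. Of 32 NRF2 targets and genes of the glutathione and thioredoxin system 17 were higher at 3 hr, with a median of 0.56, and 0 were higher and 3 lower at 72 hr, with a median of -0.13. Cat, catalase, had changes of -0.01 at 3 hr and -1.04 ± 0.21 (adjusted p = 0.00695) at 72 hr. Of 38 immediate early genes 18 were higher at 3 hr and 2 at 72 hr (0 when control 0 hr replicate 2 or 3 or control 72 hr replicate 2 or 3 was left out), and Myc, the growth regulator, read 7.61, 7.34 and 7.33 at 0 hr, 9.76, 10.35 and 10.43 at 3 hr and 8.10, 8.95 and 8.64 at 72 hr. Its change was 2.75 (adjusted p = 5.48e-05) at 3 hr and 1.14 ± 0.28 (adjusted p = 0.0219) at 72 hr, the latter with an adjusted p of 0.0908 with sex as a covariate and of up to 0.119 without control 0 hr replicate 2 or 3 or control 72 hr replicate 2 or 3. Heat shock and unfolded protein genes gave 12 of 33 higher at 3 hr and 1 at 72 hr, and Ddit3, the stress factor CHOP, changed by 1.33 (adjusted p = 0.000158) and then by -0.54 ± 0.16 (adjusted p = 0.0453), the latter with an adjusted p of 0.0711 once the array labelled control 0 hr replicate 1 was left out, and lost without any 1 of 12 arrays (up to 0.178). Myc targets and ribosome biogenesis gave 15 of 32 higher at 3 hr and 1 at 72 hr. The mitosis list had 0 higher and 6 lower at 3 hr, or 1 lower when the array labelled control 0 hr replicate 1 was left out, and 55 higher at 72 hr. Top2a was lower at 3 hr by 0.79 (a change of -0.79, adjusted p = 0.0385), and of the widest rises at 72 hr Mt2 had risen by 3.22 (adjusted p = 0.000138) at 3 hr, whereas Spink5 (-0.18) and Ghrl (0.32) had not passed. Without the array labelled control 0 hr replicate 1, 228 genes were higher (1.14%) and 81 lower (0.406%) at 3 hr, and the NRF2 list had 16 and the immediate early list 13 higher.

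In Cebpa d/d mice, which share no array with the control comparison, 675 genes were higher (3.39%) and 283 lower (1.42%) at 72 than at 0 hr. The mitosis genes rose in both genotypes: 58 of 62 were higher in Cebpa d/d, with a median of 1.06, and 53 were called higher in both. Of the 987 genes higher in control 445 were higher in Cebpa d/d, which is 45.1% of the control list and 65.9% of the Cebpa d/d list, and of the 438 lower genes 60 were lower in Cebpa d/d (13.7% and 21.2%). The change in Cebpa d/d had the sign of the control change for 971 of the 987 (98.4%) and 413 of the 438 (94.3%). The share of like signs over all genes is not given here, so these shares are not shown to be particular to the called genes. Across all genes the changes in the genotypes correlated at r = 0.689, and at 0.629 once the array labelled control 0 hr replicate 1 was left out, a description over genes that share arrays within each genotype. By Xist and Eif2s3y the Cebpa d/d arrays at 0 hr were female, male and male, and those at 72 hr were all female. Sex and time are thus partly confounded in the same direction in either genotype, and the part of sex in the shared changes was not tested. With sex as a covariate 553 genes were called in Cebpa d/d, against 958 without it.

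The array labelled Cebpa d/d 72 hr replicate 1 differed from its group. Over the 987 genes its median difference from the Cebpa d/d mean at 0 hr was 0.3, against 0.68 and 0.54 for replicates 2 and 3, and over the 438 genes it was -0.1, against -0.37 and -0.31. Pon1 read 8.82 on it and 4.48 and 4.92 on the others, Scgb1c1 10.84 against 7.44 and 7.27, and Psca 5.32 against 8.34 and 8.10, while its Cebpa level of 9.07 was above the 8.55 and 7.90 of the others. The mean of its club cell list was 10.22, against 9.40 and 9.50 for the others and 10.20 to 10.26 at 0 hr. At other lists it lay with the arrays at 72 hr or between the times: its mitosis list read 7.19 (0 hr 6.35 to 6.45, the others at 72 hr 7.86 and 7.55), its ciliated list 8.93 (0 hr 8.11 to 8.35, the others 8.91 and 8.87) and its endothelial list 8.05 (0 hr 8.42 to 8.73, the others 7.99 and 8.06). Without it 886 genes were higher (4.44%) and 386 lower (1.94%) in these mice, and r was 0.756. Set against the control list called with all arrays, the shared genes became 585 higher (59.3% of that list and 66% of the Cebpa d/d list). Shared lower genes became 127 (29% and 32.9%). In control the fit without this array called 1106 genes higher and 527 lower, a list that these shares do not use. Club cell markers called lower in Cebpa d/d went from 2 to 13 of 30 with this array left out. In control they went from 11 to 15, since the spread is shared over all arrays. The array was singled out at genes changed in control, so a move towards control without it follows from that choice and is no support for likeness of the genotypes.

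The difference between genotypes in the change from 0 to 72 hr was tested as an interaction, which gave 0 genes with a wider rise in Cebpa d/d and 19 genes (0.0953%) with a lower change there than in control. Before adjustment, 892 of 19938 genes had a p under 0.05 in this limma test. That is below the share of 0.05 reached when no gene differs, so the count alone points to no further genes. Spink5 came first: its change was 3.59 ± 0.15 in control and 0.22 ± 0.15 in Cebpa d/d, a difference of -3.37 ± 0.21 (adjusted p = 2.57e-07). In Cebpa d/d mice Spink5 read 5.39, 5.36 and 5.30 at 0 hr and 5.37, 5.50 and 5.83 at 72 hr, so the groups overlap there. Orm2, Sectm1b and Cd7 also rose in control and not in Cebpa d/d, with differences of -2.26, -2.07 and -1.19 (adjusted p = 0.0273, 0.0273 and 0.0396). Orm2 read 7.18, 6.99 and 6.68 at 0 hr and 6.89, 6.63 and 6.40 at 72 hr in Cebpa d/d. Most of the other genes were muscle genes, such as Ttn, the giant sarcomere protein, which read 9.92, 9.49 and 9.16 in Cebpa d/d arrays at 0 hr, 5.96, 6.11 and 5.95 in those at 72 hr, and 5.75 to 7.66 in the control arrays at both times. Of 39 cardiac muscle genes 32 were lower at 72 than at 0 hr in Cebpa d/d. The mean level of this list was 8.57 to 9.38 in the Cebpa d/d arrays at 0 hr and 6.79 to 7.86 in the control arrays at 0 hr. Without the array labelled control 0 hr replicate 1, or without the array labelled Cebpa d/d 72 hr replicate 1, 3 genes passed (0.015%), in both cases Spink5, Pgam2 and Myom1.

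**Figure D4:**
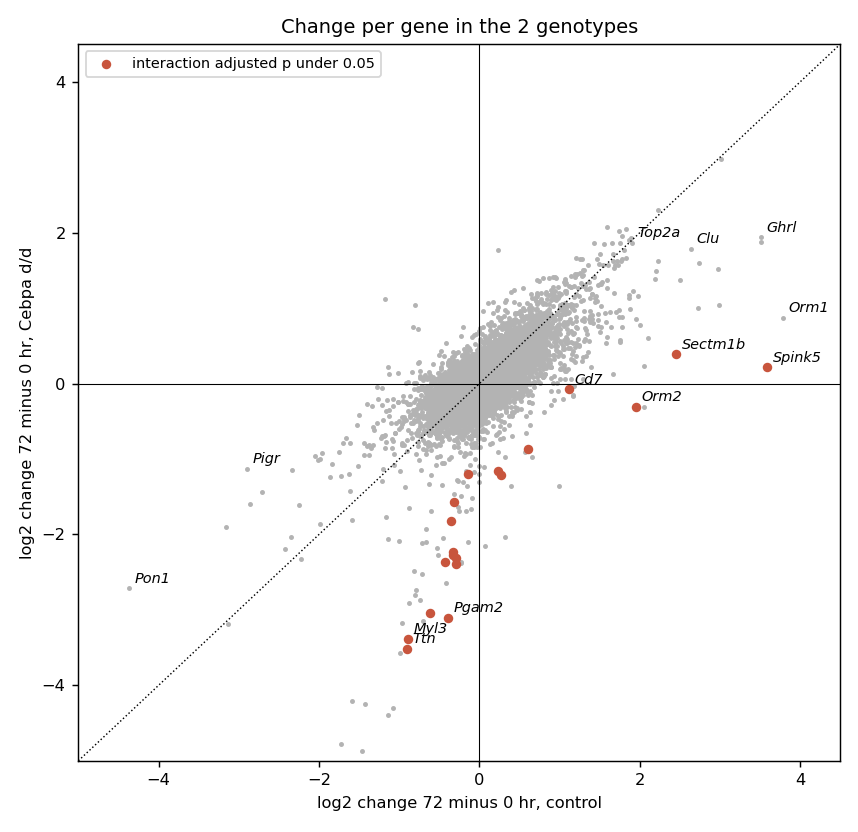
Log2 change from 0 to 72 hr of each of 19938 genes in control (horizontal axis) and in Cebpa d/d (vertical axis), with the 19 genes that passed the interaction test in red and equal change on the dotted line. Spink5 lies at 3.59 on the control axis and 0.22 on the other, and the red points far below the line near 0 on the control axis are mostly muscle genes.

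Genes with an interaction that did not pass cannot be taken as equal between genotypes. Orm1 changed by 3.79 ± 0.58 in control and by 0.88 in Cebpa d/d (adjusted p of the difference 0.479), and Pigr by -2.9 ± 0.29 and by -1.13 (0.216). Macrophage markers gave 12 calls in control and 1 in Cebpa d/d, or 13 and 7 without Cebpa d/d 72 hr replicate 1. Acute phase proteins gave 7 and 0 calls higher, or 8 and 1 without that array. Ciliated cell genes gave 13 in control and 29 in Cebpa d/d. No member of the macrophage and ciliated lists was called in the interaction, so the unequal counts are not shown to be a difference between genotypes.

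**Figure D5:**
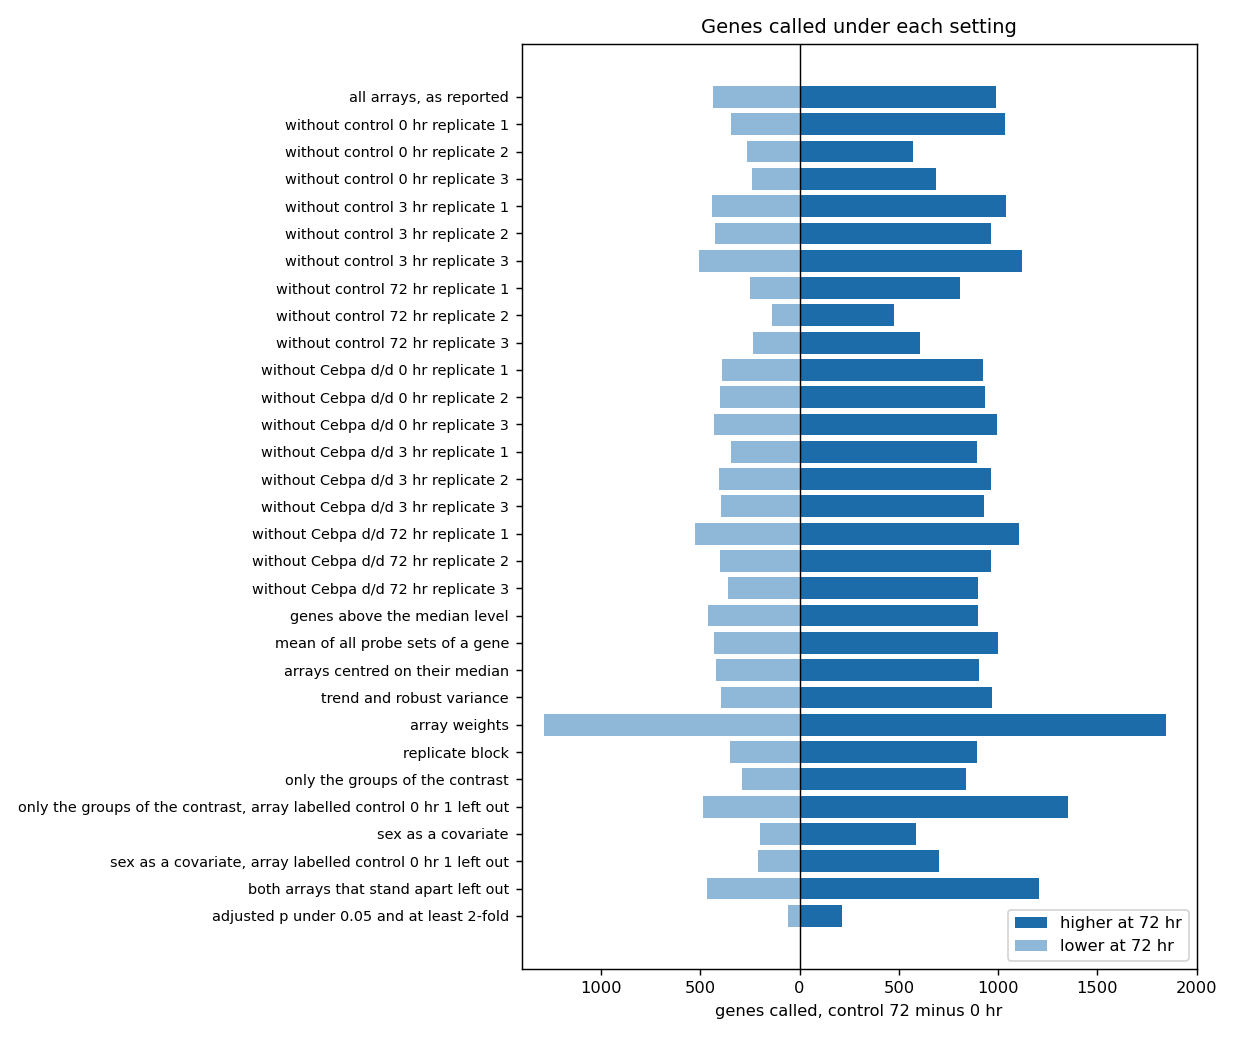
Number of genes called higher (dark bars, right) and lower (light bars, left) at 72 than at 0 hr in control arrays (horizontal axis) under each setting of the analysis (vertical axis). With all arrays the counts are 987 and 438, leaving out control 72 hr replicate 2 gives the lowest total of the settings that leave out 1 array at 614, and array weights give the highest of all at 3133.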

How the data were processed

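The authors deposited log2 values of 35557 probe sets on 18 Affymetrix arrays; RMA is the tool that the submitters' processing notes name, and the RMA version, a genome build and scan batches are not given in the sources used here. The deposited log2 values were used without further normalization (array medians 6.48 to 6.65). Of the probe sets 21789 carry 1 gene symbol, 1621 several and 12147 none in the platform annotation; the latter 2 kinds were not named. For 999 genes with several probe sets that with the highest mean was kept, which left 19938 genes.

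One model with 6 groups was fitted to all 18 arrays with limma 3.58.1 in R 4.3.3 (lmFit, eBayes, 12 residual degrees of freedom), with Benjamini-Hochberg adjustment across the whole set of genes. The groups came from the labels. The fit was tested on simulated data. Precision is limited by 3 arrays per group.

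The comparison, the 41 gene lists and the rules were chosen with earlier results of these data known. Named genes were anchors, the 15 widest called changes in each direction without overlapping groups, up to 5 members of each list by adjusted p, and interaction genes; others are list members named after their values were seen, as examples or as genes that did not pass. Ccnb1 and Cdkn1a were not analysed here. Same-numbered control arrays at 0 and 72 hr correlated at -0.174, 0.045 and -0.046 in their deviations from the group means, so the numbers do not pair the samples. Promoters are RefSeq sequences on GRCm38.p6. Alternatives were sex as a covariate, arrays left out, array weights, only the groups compared, a replicate block, filters on low genes, array centring and a fold threshold.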

Additional observations from a re-analysis of the deposited data

Results flagged for a closer look

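The change from 0 to 72 hr differed between control and Cebpa d/d mice, by limma's interaction test with Benjamini-Hochberg adjustment, for 19 genes, each with a lower change in Cebpa d/d. The differences (log2) were -3.37 for Spink5, -2.26 for Orm2, -2.07 for Sectm1b, -1.19 for Cd7 and -1.47 for the histone gene H3c15. Among genes of muscle and its metabolism they were -2.71 for Pgam2, -2.61 for Ttn, -2.49 for Myl3, -2.42 for Csrp3, -2.1 for Lmod2, -2.03 for Txlnb, -1.95 for Tcap, -1.93 for Xirp2, -1.91 for Actn2, -1.47 for Tecrl, -1.47 for Eno3, -1.39 for Myom1, -1.25 for Mybphl and -1.05 for Tmod1. Spink5 (adjusted p = 2.57e-07, at most 3.18e-06 with any 1 array left out), Pgam2 (0.00177, at most 0.00968) and Myom1 (0.000323, at most 0.00221) kept their calls with any 1 array left out. The other 16 had an adjusted p of 0.0246 to 0.0404 and lost the call in at least 1 such setting, where it reached 0.0873 to 0.149.

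Among the 13768 probe sets without a single gene symbol, which the comparisons by gene do not use, 159 were higher and 176 lower at 72 than at 0 hr in control arrays. In the comparison by gene the counts were 987 higher and 438 lower of 19938 genes.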

How the results depend on the processing

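Of 157 called results on named genes 100 kept their call under every alternative that gave them a value, where 119 of the 157 had a value among genes above the median level. The control comparison gave 1425 calls with all arrays, 614 to 1633 with 1 array left out (614 without control 72 hr replicate 2, 836 and 922 without control 0 hr replicates 2 and 3, 841 without control 72 hr replicate 3), 790 with sex as a covariate, 913 with sex once the array labelled control 0 hr replicate 1 was left out, 3133 with array weights and 270 at 2-fold or more. The Cebpa d/d comparison gave 958, 398 to 1272 with 1 array left out (at 72 hr in Cebpa d/d, replicate 1 left out gave 1272, replicate 2 gave 398 and replicate 3 gave 512; at 0 hr, replicate 1 gave 612 and replicate 2 gave 617), 1981 with array weights, 553 with sex, 1441 without both arrays that stand apart and 230 at 2-fold. The interaction gave 19, 3 to 48 with 1 array left out (48 without Cebpa d/d 0 hr replicate 3, and 3 to 12 without any other array of the groups compared except control 0 hr replicate 2), 69 with array weights, 8 among genes above the median level, 4 from the groups compared alone (the array labelled control 0 hr replicate 1 kept or left out), and 3 with sex and without that array or without both arrays. The control comparison at 3 hr gave 697, 231 to 1414 with 1 array left out (309 and 279 without control 0 hr replicates 1 and 3, and 1414, 310 and 231 without control 3 hr replicates 1, 2 and 3), 55 from the groups compared alone, 46 from them less the array labelled control 0 hr replicate 1, 253 with sex and without that array, 332 without both arrays and 120 at 2-fold. The replicate block gave 1246 calls in the control comparison at 72 hr; the replicate numbers do not pair the samples. The change of Cebpa, 0.41 with all arrays, ranged from -0.33 to 0.81 with 1 array left out, was -0.33 in each setting that left out the array labelled control 0 hr replicate 1, and -0.08 with array weights. The change of Scgb1a1 ranged from -0.02 to 0.04 with 1 array left out, was -0.02 with sex, in the settings without both arrays or with the groups compared less the array labelled control 0 hr replicate 1, -0.05 with sex and without that array, and -0.01 with array weights. The causes were not tested. Sex and time are partly confounded, since no array at 72 hr was male, and 2 of the added settings (sex less the array labelled control 0 hr replicate 1, or both arrays left out) were chosen after seeing the data.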
